A study of Saccharomyces cerevisiae with 14 samples.

Results

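The change from G1 to early S phase was followed in *ARP8* wild-type cells of the budding yeast *Saccharomyces cerevisiae*, in 4 of the 14 RNA-seq libraries of the series. The members are all libraries labelled as the wild-type strain at 20 or 10 min after release from an α-factor block, with 2 biological replicates at each time. The strain, yCFK51, is *MAT* a with the auxotrophic alleles *his3*Δ1, *leu2*Δ0, *met15*Δ0 and *ura3*Δ0. Its label lists no other allele, and both times share the pheromone arrest in complete medium and the release. The labels give the times, and the study's account of the experiment takes 20 min as early S and 10 min as G1. In the *arp8-AA* strain, yPB4, both serines of Arp8 with phosphorylation dependent on the kinase DDK are replaced by alanine. Its label does not list *met15*Δ0 but has the other alleles in common, and its 4 libraries at the same times share the fit. Arp8 is an actin-related subunit of the nucleosome remodeller INO80, and DDK, made of Cdc7 and Dbf4, fires replication origins.

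α-factor is the mating pheromone that *MAT* a cells sense through the receptor Ste2. It arrests them before Start, the commitment point of G1. After its removal, G1 cyclin and kinase act on the transcription factors SBF and MBF, which turn on the G1/S genes: further cyclins, the replication enzymes, nucleotide synthesis and cohesin. In S phase MBF genes are shut off again, the core histone genes peak, and forkhead factors begin the next wave, which ends in the mitotic cyclins of the *CLB2* cluster. Transcripts that peak in the M/G1 window, such as the MCM helicase genes, decline between these waves.

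The 20 min libraries held 4571748 and 2834041 estimated counts and the 10 min libraries 2477812 and 3233859, in the order of replicate 1 and 2. Levels are given as CPM, estimated counts scaled to the size of the library after TMM correction, and the 2 values of a time always stand in the order of the replicates. The change is the log2 ratio of 20 min over 10 min, with its standard error (SE), from a quasi-likelihood fit of all 8 synchronised libraries that holds the replicate number as a block. A transcript counts as changed where its p, adjusted over the 5453 transcripts tested, is under 0.05. The change within a pair is that of replicate 1 or replicate 2 alone. The 4 libraries fitted the labelled mating type and strain. *MF(ALPHA)1*, which α cells express, had 0 counts in all 4, and *MET17*, the gene of the *met15* allele, also had 0 in all 4. *STE2* stood at 241 and 63.97 CPM at 20 min, against 298 and 122 CPM at 10 min. *ARP8* itself was level, with 178 and 184 CPM at 20 min and 182 and 142 CPM at 10 min.

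The replicates stood apart before any comparison of the times. The core histones took 0.507% and 0.814% of all counts at 20 min, against 0.113% and 0.541% at 10 min, and 0.489% to 0.493% in 3 asynchronous *ARP8* cultures. The 10 min library of replicate 2 thus held as large a histone share as the 20 min library of replicate 1, and more than cells of all stages mixed. By this measure alone the label G1 was uncertain for it, so the libraries are called by their times. The MBF targets took 0.803% and 0.5% at 20 min, against 0.914% and 0.946% at 10 min, and 0.32% to 0.333% in asynchronous cells. The stage of each library was not tested. The *CLB2* cluster took 0.0801% and 0.184% at 20 min, against 0.072% and 0.062% at 10 min, and only the 20 min library of replicate 2 exceeded the 0.147% to 0.151% of asynchronous cells. The pheromone genes took 0.633% and 0.131% at 20 min, against 0.688% and 0.169% at 10 min, so they separated the replicates and hardly the times. All results below rest on both replicates, and values are therefore given for each of them. The part of this difference in the results was not tested.

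**Figure D1:**
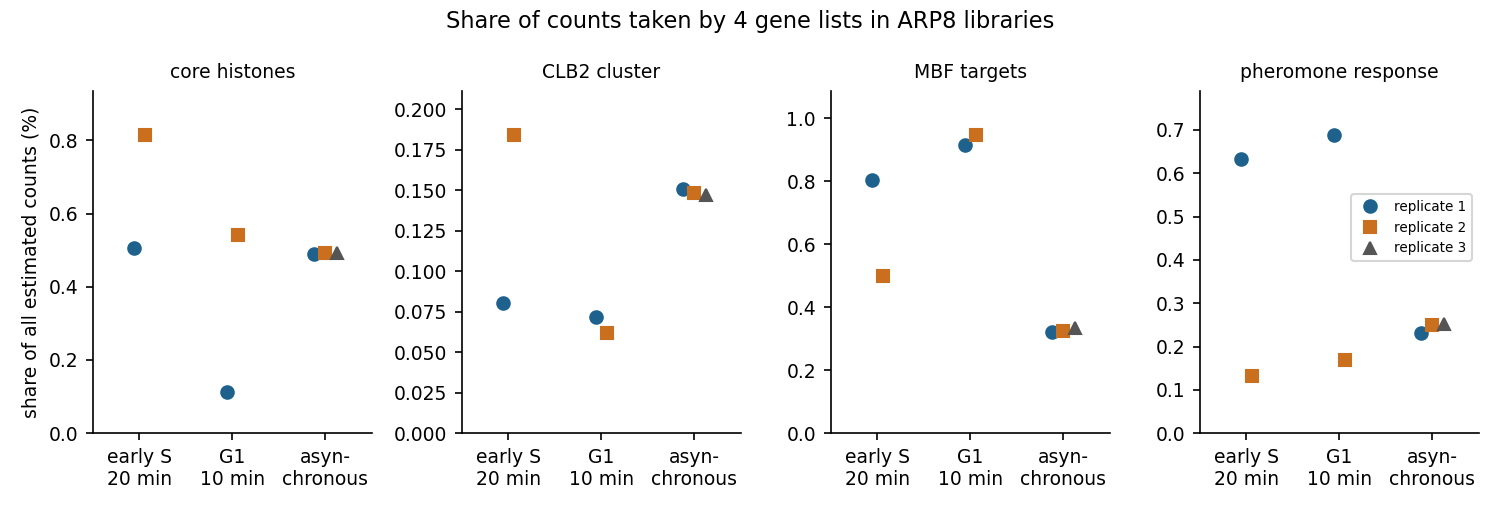
Share of all estimated counts, in percent, taken by the core histones, the *CLB2* cluster, the MBF targets and the pheromone response genes in each *ARP8* library at 20 min, at 10 min and in asynchronous culture. Each point is 1 library. Replicate 2 holds 0.541% of core histones at 10 min, above the 0.507% of replicate 1 at 20 min, and the pheromone genes take 0.633% and 0.688% in replicate 1, against 0.131% and 0.169% in replicate 2.

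Promoters of 4 genes are shown, of *FKH1* and *ADE17* because they changed and of *SPT21* and *GLK1* as examples of the MBF and stress lists, which did not pass the test, each from 250 bases before the start codon to 50 bases from it (RefSeq, build R64). Capitals mark the binding motif searched for. In *FKH1*, which rose, they mark the forkhead motif GTAAACA, which begins 172 bases before the start. In *SPT21*, an MBF target, they mark the MCB element ACGCGT, at 234 bases. In *GLK1*, a stress gene, they mark 3 stress elements (CCCCT on either strand), at 182, 174 and 167 bases. In *ADE17*, which fell, they mark TGACTC, the motif of the purine regulator Bas1, at 177 bases. *FKH1* lies on the minus strand at chrIX:102186-102485, *SPT21* on the plus strand at chrXIII:619608-619907, *GLK1* on the plus strand at chrIII:50588-50887 and *ADE17* on the minus strand at chrXIII:509231-509530.
FKH1: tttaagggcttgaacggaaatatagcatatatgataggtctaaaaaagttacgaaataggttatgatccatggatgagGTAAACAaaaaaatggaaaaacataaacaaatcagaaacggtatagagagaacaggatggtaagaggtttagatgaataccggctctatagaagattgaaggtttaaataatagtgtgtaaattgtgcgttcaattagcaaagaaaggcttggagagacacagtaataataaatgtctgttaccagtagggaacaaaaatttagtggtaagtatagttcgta
SPT21: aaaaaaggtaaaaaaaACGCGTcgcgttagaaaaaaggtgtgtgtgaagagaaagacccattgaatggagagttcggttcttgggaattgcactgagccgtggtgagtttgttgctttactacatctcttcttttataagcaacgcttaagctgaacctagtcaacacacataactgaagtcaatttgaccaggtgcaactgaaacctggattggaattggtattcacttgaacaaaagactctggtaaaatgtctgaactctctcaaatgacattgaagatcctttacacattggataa
GLK1: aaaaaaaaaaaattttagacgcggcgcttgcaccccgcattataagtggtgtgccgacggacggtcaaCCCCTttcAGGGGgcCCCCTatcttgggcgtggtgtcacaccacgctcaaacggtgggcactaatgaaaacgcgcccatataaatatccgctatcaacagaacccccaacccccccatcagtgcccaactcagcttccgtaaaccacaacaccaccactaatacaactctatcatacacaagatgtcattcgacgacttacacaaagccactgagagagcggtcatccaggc
ADE17: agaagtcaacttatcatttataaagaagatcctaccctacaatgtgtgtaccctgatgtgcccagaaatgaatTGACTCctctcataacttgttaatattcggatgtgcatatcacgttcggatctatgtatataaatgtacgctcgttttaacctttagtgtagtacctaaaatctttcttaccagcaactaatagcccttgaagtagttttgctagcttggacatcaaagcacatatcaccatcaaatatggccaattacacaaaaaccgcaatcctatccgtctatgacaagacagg

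Between 10 and 20 min, 6 of the 5453 transcripts changed (0.11%), 2 of which rose (0.0367%) and 4 fell (0.0734%). Those that rose were *FKH1*, which encodes a forkhead factor that is known to act on the *CLB2* cluster and on the timing of origins, and *SUR7*, which encodes a membrane protein of the eisosome domains. Those that fell were *ADE17*, which encodes the enzyme of the last steps of purine synthesis, and 3 identical copies of the subtelomeric helicase gene *YRF1*. All calls but that of *ADE17* depended on counting these copies separately, as given below. *FKH1* (YIL131C, chrIX:100781-102235) stood at 90.2 and 180.1 CPM at 20 min, against 43.0 and 71.4 CPM at 10 min. Both 20 min libraries lay above both 10 min libraries, as for 15.9% of all transcripts. Its change was 1.21 (log2, SE 0.178, adjusted p = 0.038), with 1.06 in pair 1 and 1.33 in pair 2.

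*SUR7* (YML052W, chrXIII:170402-171310) stood at 36.4 and 113 CPM at 20 min, against 15.8 and 35.2 CPM at 10 min. The groups did not overlap, but the lower 20 min library and the higher 10 min library, which belong to different replicates, nearly met. Its change was 1.48 (log2, SE 0.219, adjusted p = 0.038). *ADE17* (YMR120C, chrXIII:507502-509280) stood at 274 and 324 CPM at 20 min, against 681 and 979 CPM at 10 min. It showed the smallest adjusted p of all transcripts, with a change of -1.46 (log2, SE 0.153, adjusted p = 0.0095) and nearly the same size in both pairs, -1.31 and -1.59. Other genes of purine synthesis and of the one-carbon units it consumes did not pass the test. *ADE13*, of the same pathway, stood at 820 and 822 CPM at 20 min, against 1261 and 1117 CPM at 10 min, and *GCV1*, of glycine cleavage, at 72.1 and 95.2 CPM, against 139 and 176 CPM (adjusted p = 0.23 and 0.21). These 2 were chosen after their values were seen.

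*YRF1-1*, *YRF1-5* and *YRF1-8* have the same sequence and the same values, so they are 1 measurement, given here for *YRF1-1* (YDR545W, chrIV:1526321-1531711). They entered the adjustment as separate transcripts, and *FKH1* and *SUR7* share their adjusted p of 0.038, which depends on that count. An adjustment with the copies counted once was not run, so these calls hold only for the adjustment as made. Each copy stood at 187 and 58.8 CPM at 20 min, against 378 and 152 CPM at 10 min, a change of -1.17 (log2, SE 0.168, adjusted p = 0.038). Here the groups overlapped, because replicate 1 was above replicate 2 at both times. Reads of this family are shared among its members, and the sum over 8 *YRF1* genes gave -0.846 in pair 1 and -0.997 in pair 2 (log2).

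**Figure D2:**
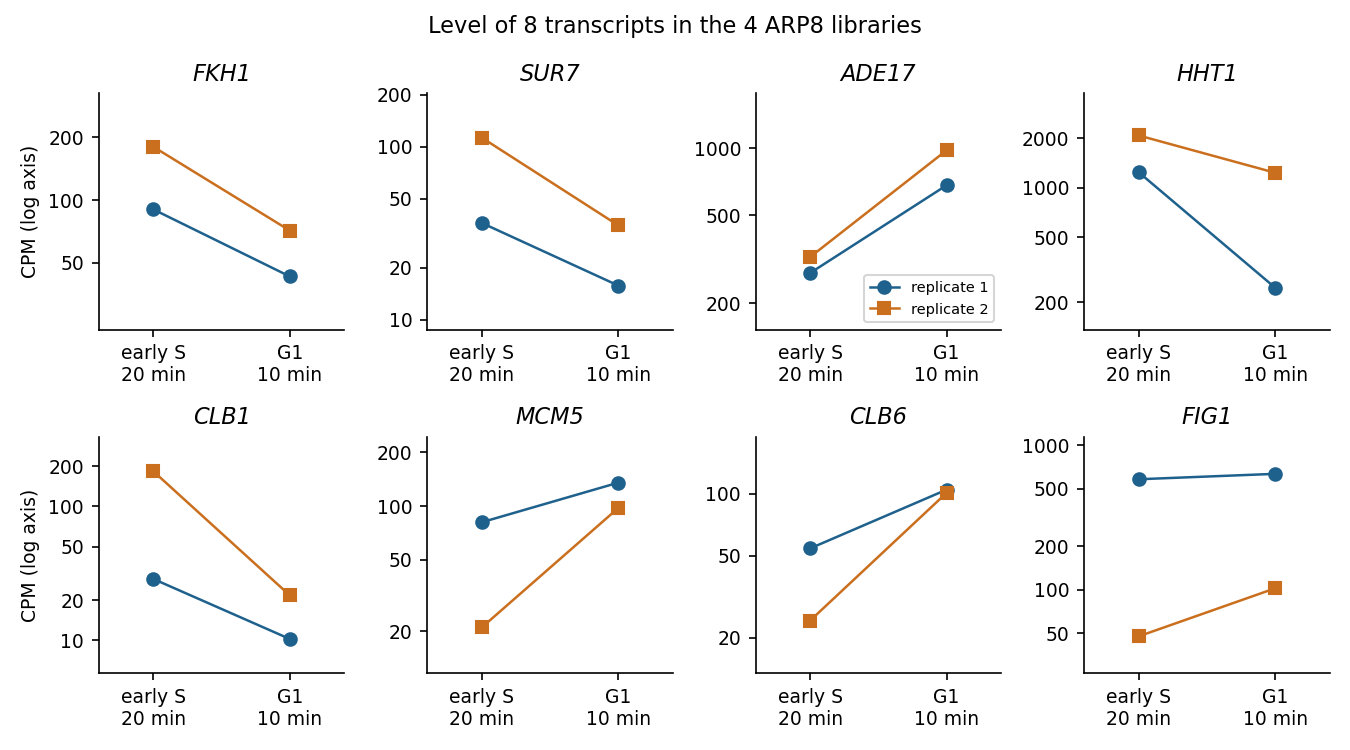
Level of 8 transcripts in the 4 *ARP8* libraries, in CPM on a log axis that differs between panels, with 20 min left of 10 min. Each point is 1 library and lines join libraries of 1 replicate. *FKH1*, *SUR7* and *ADE17* move alike in both replicates, *HHT1* mostly in replicate 1, *CLB1* and *MCM5* mostly in replicate 2, and *FIG1* differs mainly between replicates (581 against 47.4 CPM at 20 min).

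The count of calls depended on single libraries. It was 1 and 4 without the 20 min library of replicate 1 and 2, 3 and 0 without the 10 min library of replicate 1 and 2, and 0 without the replicate block. In all, 15 alternatives were tried, most of which kept all 4 *ARP8* libraries. These changed the test, scaling, filter, threshold, block or the use of the *arp8-AA* libraries. Over the 15, *ADE17* was called in 8, *FKH1* and *YRF1-1* in 7 and *SUR7* in 6. The looser threshold passes every called transcript by construction. *FKH1*, *YRF1-1* and *SUR7* passed only where all 4 *ARP8* libraries were kept. The changes ran from 1.02 to 1.38 for *FKH1*, 1.2 to 1.68 for *SUR7* and -1.62 to -1.29 for *ADE17*.

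Beyond these calls, 549 transcripts had an unadjusted p under 0.05 (10.1%), 242 higher at 20 min (4.44%) and 307 lower (5.63%). Both pairs were higher at 20 min for 1507 transcripts (27.6%) and lower for 1628 (29.9%). The 2 pairs told partly different stories. Among the 4753 transcripts with a mean of at least 10 CPM, the change was spread with an SD of 0.314 in pair 1 and 0.501 in pair 2 (log2), and Pearson's r of the pairs was 0.265 across transcripts, which are not independent replicates. More than 1 log2 unit separated the times for 40 of them in pair 1 and 198 in pair 2. Over all 5453 transcripts 11 were that much higher in both pairs (0.202%) and 15 lower (0.275%). With the minimum of 10 CPM, 4 were that much higher in both, *FKH1*, *SUR7*, *AIM20* and the mitotic cyclin gene *CLB1*. *AIM20* stood at 24.2 and 79.4 CPM at 20 min, against 9.47 and 27.3 CPM at 10 min (adjusted p = 0.11). Another 9 were that much lower in both, among them *ADE17*, the *YRF1* copies and *HXT7*, and 1 was so in opposite directions.

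**Figure D3:**
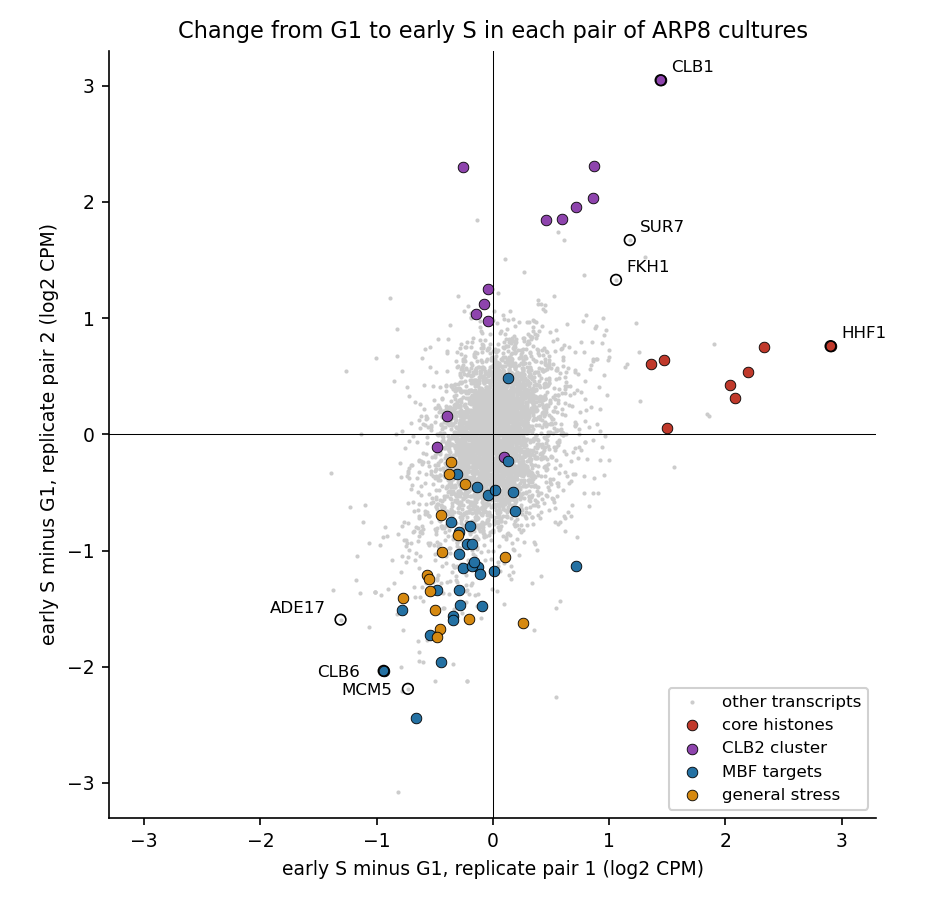
Change from 10 to 20 min in the *ARP8* cultures of replicate pair 1 (x axis) and pair 2 (y axis), as log2 ratios of CPM, for 4751 transcripts with a mean of at least 10 CPM (2 more lie outside the axes). Points in colour are members of 4 gene lists. Core histones extend along the axis of pair 1, the *CLB2* cluster along that of pair 2, and MBF and stress genes run downwards in pair 2.

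The histone genes carried the strongest S phase signal in replicate 1. Nucleosomes are built from H2A, H2B, H3 and H4, each encoded by 2 genes with identical or nearly identical products, and their transcripts accumulate in S phase. In bulk RNA, more cells in S phase and more histone RNA per cell cannot be told apart. All 8 core histone genes were higher at 20 min in both pairs, beside 27.6% of all transcripts, and all 8 had an unadjusted p under 0.05, beside 4.44%. None passed the adjusted test, and the lowest adjusted p was 0.14. Their median change was 1.18 in the fit, 2.06 in pair 1 and 0.572 in pair 2 (log2), against -0.02, 0.00125 and -0.0327 over all transcripts tested.

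*HHT1*, an H3 gene, stood at 1239 and 2076 CPM at 20 min, against 246 and 1231 CPM at 10 min. The 10 min library of replicate 1 was low and the other 3 were high. Its change was 1.54 (SE 0.291), with 2.33 in pair 1 and 0.754 in pair 2. *HHF1*, an H4 gene, stood at 1202 and 2171 CPM at 20 min, against 159.9 and 1283 CPM at 10 min, and *HTA1*, an H2A gene, at 1081 and 1768 CPM, against 263 and 1316 CPM. For both, the higher 10 min value exceeded the lower 20 min value. *HHF2* was nearly level in pair 2 (0.0547) and 1.502 higher in pair 1 on the log2 scale.

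The gene copies share up to 40.8% of their 31-mers with another gene, so the counts of a copy depend in part on how reads were divided. Sums over the copies are free of this, and they behaved alike. H3 (*HHT1* and *HHT2*) was 2.19 higher in pair 1 and 0.736 in pair 2, H4 2.29 and 0.522, H2A 2.10 and 0.471, and H2B 1.65 and 0.531 (log2). The linker histone gene *HHO1* stood at 46.3 and 46.0 CPM at 20 min, against 18.9 and 37.5 CPM at 10 min, in the same pattern. The 4 *ARP8* libraries fitted alone with the block kept leave 1 residual degree of freedom. Calls from this fit, here and below, are therefore weaker evidence than those of the main fit. In it, 30 transcripts were higher (0.561%) and 65 lower (1.22%) at an adjusted p under 0.05. Among those higher were 6 of the 8 core histones. Without the block this fit called 0 transcripts. DESeq2 on all 8 libraries called 7 transcripts higher (0.178%), *HHT2* the single histone gene among them, and 21 lower (0.535%). With both libraries of replicate 1 left out no transcript passed, nor with both of replicate 2. Without the 20 min library of replicate 2 alone, *HHT1*, *HHF1*, *HTA1* and *HTA2* passed.

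The G1/S genes were lower at 20 min, and more so in replicate 2. Of 33 MBF targets tested, 25 were lower in both pairs (beside 29.9% of all transcripts) and 1 higher. At an unadjusted p under 0.05, 14 were lower (beside 5.63%) and 0 higher. None passed the adjusted test. Their median change was -0.573, with -0.193 in pair 1 and -1.13 in pair 2 (log2). *CLB6*, which encodes an S phase cyclin that activates early origins, stood at 54.3 and 24.3 CPM at 20 min, against 105 and 101 CPM at 10 min. The groups did not overlap, as for 15.4% of all transcripts on the lower side (change -1.48, SE 0.501, adjusted p = 0.34). *CLB5*, its paralogue, stood at 116 and 66.5 CPM at 20 min, against 142 and 169 CPM at 10 min.

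*SPT21*, which encodes a factor needed for the transcription of histone genes, stood at 55.8 and 16.5 CPM at 20 min, against 88.4 and 92.2 CPM at 10 min. Of the cohesin genes, 8 of 9 were lower in both pairs (beside 29.9%) and 0 higher. *MCD1*, the kleisin subunit, led them with 502 and 197 CPM at 20 min, against 684 and 767 CPM at 10 min. The 10 min libraries of the 2 replicates were close to each other, and the 20 min library of replicate 2 was the low one. The large subunit of ribonucleotide reductase, *RNR1*, stood at 1335 and 647 CPM at 20 min, against 1439 and 1489.9 CPM at 10 min, and the sliding clamp *POL30* at 159 and 96.3 CPM, against 169 and 269 CPM. The small subunit gene *RNR2* lay on the other side, with 518 and 732 CPM at 20 min and 454 and 530 CPM at 10 min.

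Among 25 fork enzymes, 12 were lower in both pairs (beside 29.9% of all transcripts) and 2 higher (beside 27.6%), and *POL12*, of the primase complex, stood at 35.7 and 16.5 CPM at 20 min, against 61.6 and 48.1 CPM at 10 min. *PRI2*, the large primase subunit, stood at 90.01 and 53.3 CPM, against 114 and 159 CPM. Of 12 origin firing factors, 6 were lower in both pairs and 1 higher, beside the same shares, led by the helicase cofactor *CDC45* with 138 and 73.5 CPM at 20 min, against 176 and 223 CPM at 10 min. The DDK genes themselves differed little. *CDC7* stood at 50.4 and 51.1 CPM at 20 min, against 56.1 and 49.0 CPM at 10 min, and *DBF4* at 44.8 and 64.7 CPM, against 41.5 and 47.4 CPM.

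Of 19 SBF targets tested, 10 were lower in both pairs (beside 29.9% of all transcripts) and 1 higher (beside 27.6%), with 3 lower at an unadjusted p under 0.05 (beside 5.63%) and 0 higher, and a median of -0.398. The G1 cyclin gene *CLN2* stood at 14.9 and 10.3 CPM at 20 min, against 29.6 and 27.6 CPM at 10 min, and the cyclin gene *PCL1* at 55.8 and 29.4 CPM, against 89.2 and 78.7 CPM. *CLN1* stood at 47.8 and 35.7 CPM at 20 min, against 45.8 and 63.2 CPM at 10 min, in opposite directions in the 2 pairs. The most upstream cyclin gene, *CLN3*, was not tested, with 10 and 1 counts at 20 min and 4 and 4 at 10 min.

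The 11 Start and G1 regulators tested had no common direction, with a median of -0.0181. In both pairs 4 were higher (beside 27.6% of all transcripts) and 3 lower (beside 29.9%). The DNA-binding subunits of the 2 factors stood on opposite sides. *SWI4*, of SBF, stood at 49.98 and 34.2 CPM at 20 min, against 77.4 and 90.8 CPM at 10 min (adjusted p = 0.28). *MBP1*, of MBF, stood at 45.2 and 46.0 CPM, against 27.2 and 35.2 CPM (adjusted p = 0.39). The inhibitors of the cyclin kinase did not move together. *SIC1*, the inhibitor of S phase cyclins, stood at 18.2 and 13.6 CPM at 20 min, against 15.4 and 16.1 CPM at 10 min. *FAR1*, the inhibitor that α-factor induces, stood at 332 and 54.8 CPM at 20 min, against 392.4 and 65.5 CPM at 10 min.

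All 6 subunit genes of the MCM helicase were lower at 20 min in both pairs (beside 29.9% of all transcripts). Each had an unadjusted p under 0.05 (beside 5.63% lower). This ring is loaded at origins in G1, and its genes are known to peak around mitotic exit. *MCM5* stood at 81.1 and 20.96 CPM at 20 min, against 135 and 97.4 CPM at 10 min (change -1.36, SE 0.316, adjusted p = 0.23). *MCM2* stood at 132 and 54.4 CPM, against 234 and 159.6 CPM (change -1.18, SE 0.275). For these 2 the groups did not overlap, beside 15.4% of all transcripts with both 20 min libraries below both 10 min libraries. *MCM7* stood at 71.6 and 31.6 CPM at 20 min, against 135 and 58.3 CPM at 10 min, where replicate 1 was higher at both times and the groups overlapped, while the change was nearly equal in the pairs (-0.914 and -0.871).

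The other MCM genes had changes of -0.84 (*MCM4*), -0.64 (*MCM3*) and -0.58 (*MCM6*). Of all 14 licensing genes, 8 were lower in both pairs (beside 29.9% of all transcripts) and 3 higher (beside 27.6%). Among them the origin recognition subunit *ORC1* was the only one with an unadjusted p under 0.05 on the higher side. It stood at 175 and 257 CPM at 20 min, against 119 and 174 CPM at 10 min, the same ratio in both pairs (0.556 and 0.556 on the log2 scale). The loading factor *CDC6* stood at 14.3 and 19.5 CPM at 20 min, against 24.9 and 19.1 CPM at 10 min. With the *ARP8* libraries fitted alone, 4 licensing genes were lower at an adjusted p under 0.05 (beside 1.22%) and 0 higher (beside 0.561%). The study's own list of replication genes had 153 members tested, of which 61 were lower in both pairs (beside 29.9%) and 29 higher (beside 27.6%), and 1, *FKH1*, rose.

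The forkhead and spindle genes that follow the G1/S wave lay above their 10 min level, and the *CLB2* cluster after them in replicate 2. Of 12 genes of the Hcm1 and S phase spindle list, 8 were higher in both pairs (beside 27.6%), 0 lower, and 4 had an unadjusted p under 0.05, all higher (beside 4.44%), with a median of 0.427. Beside *FKH1*, its paralogue *FKH2* stood at 30.1 and 55.5 CPM at 20 min, against 17.4 and 28.0 CPM at 10 min. The kinetochore gene *DSN1* stood at 11.3 and 15.4 CPM, against 5.13 and 6.58 CPM, and the spindle motor gene *KIP1* at 116 and 139 CPM, against 80.5 and 91.5 CPM. The groups of all 3 were apart, beside 15.9% of all transcripts higher in this way. *HCM1* itself, the forkhead factor that precedes them, was low throughout, with 5.63 and 3.68 CPM at 20 min and 5.13 and 6.25 CPM at 10 min.

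In the *CLB2* cluster, 9 of 19 genes tested were higher in both pairs (beside 27.6%) and 1 lower (beside 29.9%), and 9 had an unadjusted p under 0.05, all higher (beside 4.44%). None passed the adjusted test, with a lowest adjusted p of 0.11. The median change was 1.03 in the fit, 0.0959 in pair 1 and 1.28 in pair 2 (log2). *CLB1* stood at 28.8 and 183 CPM at 20 min, against 10.3 and 21.7 CPM at 10 min. The 20 min library of replicate 2 was far above the other 3 (change 2.46, SE 0.467). *CLB2* followed the same order, with 39.4 and 142 CPM at 20 min and 21.3 and 28.3 CPM at 10 min.

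*SWI5*, the factor of the M/G1 genes, was barely detected at 10 min, at 1.18 and 1.65 CPM, against 6.49 and 22.4 CPM at 20 min. The Polo kinase gene *CDC5* stood at 109 and 336 CPM at 20 min, against 65.9 and 86.2 CPM at 10 min, and *BUD4*, which places the next bud, at 62.1 and 220.2 CPM, against 33.9 and 53.3 CPM. *HOF1*, a gene of cytokinesis, shows how far the pairs differed, with 3.89 and 39.3 CPM at 20 min and 4.74 and 7.57 CPM at 10 min. Fitted alone, the *ARP8* libraries gave 6 of the 19 at an adjusted p under 0.05, all higher (beside 0.561% of all transcripts).

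The pheromone genes differed between the replicates by more than between the times. Of 30 tested, 15 were lower in both pairs (beside 29.9% of all transcripts) and 5 higher (beside 27.6%), 6 were lower at an unadjusted p under 0.05 (beside 5.63%) and 0 higher, and the median change was -0.2. The median difference of replicate 2 from replicate 1 was -2.42 at 20 min and -1.97 at 10 min (log2). *FUS1*, a gene of cell fusion and a common reporter of the pathway, stood at 119 and 13.97 CPM at 20 min, against 106 and 20.7 CPM at 10 min. *FIG1*, a membrane protein of mating, stood at 581 and 47.4 CPM, against 634 and 102 CPM. In both, each time had a high library of replicate 1 and a low one of replicate 2.

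The a-cell markers were lower at 20 min within each replicate, and also lower in replicate 2 at each time. All 6 tested were lower in both pairs (beside 29.9% of all transcripts), and 4 of them had an unadjusted p under 0.05 (beside 5.63% lower). The groups were apart for 0 of the 6. *STE6*, the exporter of the pheromone of a cells, stood at 529 and 148 CPM at 20 min, against 764 and 249.8 CPM at 10 min (change -0.64, SE 0.199). *MFA2*, one of the genes of that pheromone, is short and had few counts, at 8.66 and 2.21 CPM, against 17.4 and 6.58 CPM. Per length it was not low. Its deposited TPM was 276 and 64.7 at 20 min and 541 and 166 at 10 min. That of *STE6* was 88.4 and 24.1 at 20 min and 138 and 34.1 at 10 min. The 6 markers of α cells, of which 2 were tested, together took 0.00316% and 0.00219% of counts at 20 min, against 0.00341% and 0.00205% at 10 min, with *STE3* at 9.74 and 8.09 CPM at 20 min and 7.90 and 7.90 CPM at 10 min.

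**Figure D4:**
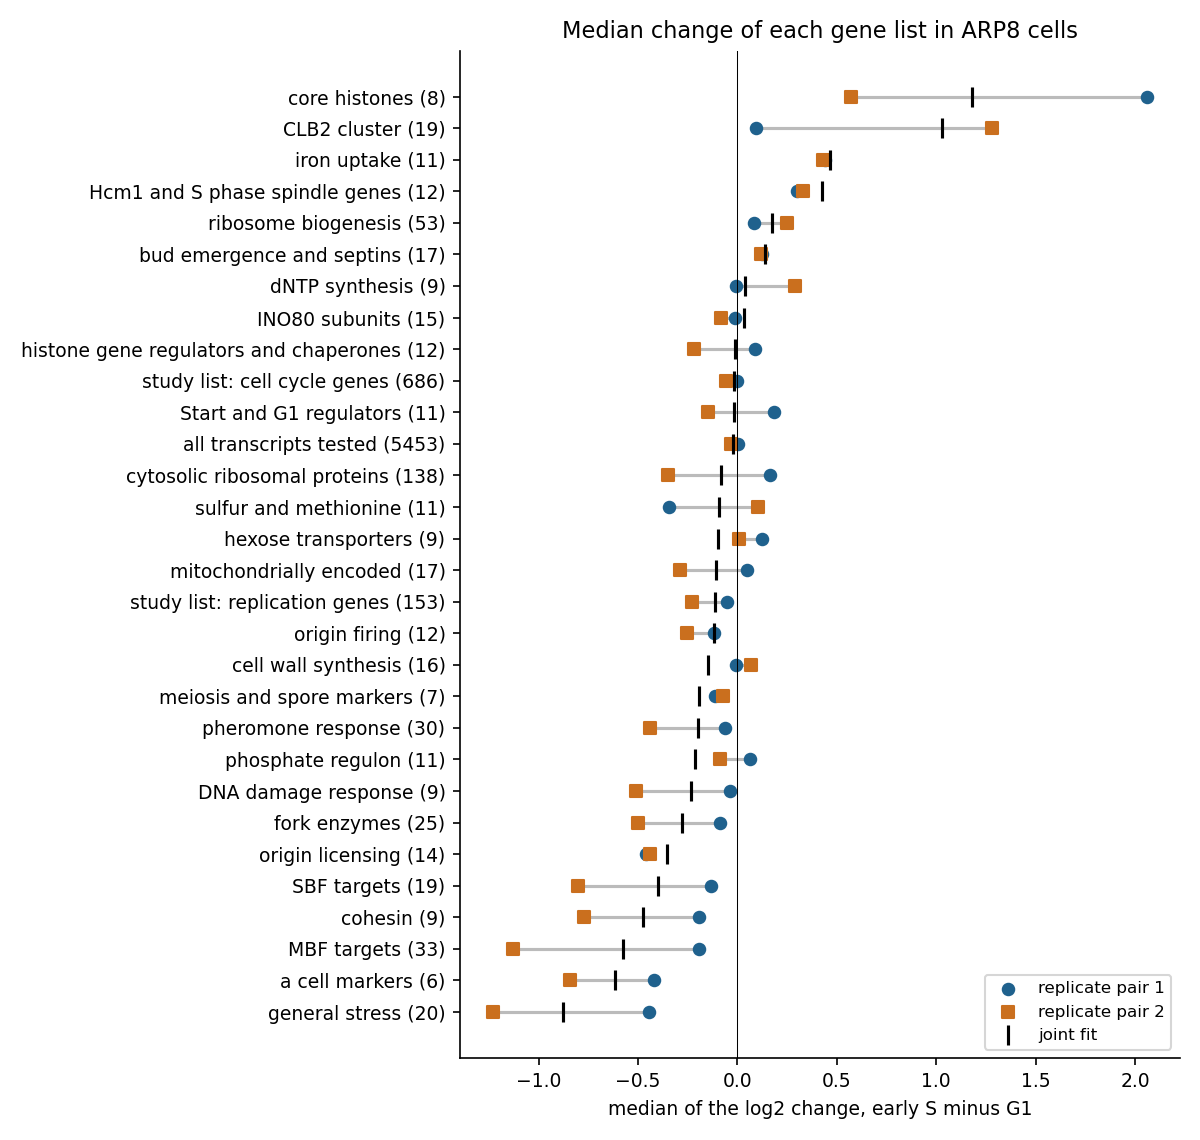
Median log2 change from 10 to 20 min of each gene list in *ARP8* cells, with the number of members tested in brackets. Circles show replicate pair 1, squares pair 2 and bars the joint fit. The core histones (2.06 and 0.572) and the *CLB2* cluster (0.0959 and 1.28) differ between pairs, while iron uptake (0.44 and 0.433) has nearly the same median in both.

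A pair of groups outside the cell cycle leaned in opposite directions in both replicates, although none of their members passed the adjusted test. Of 20 general stress genes tested, 17 were lower in both pairs (beside 29.9%) and 1 higher, and 11 were lower at an unadjusted p under 0.05 (beside 5.63%) and 0 higher. Their median change was -0.878, with -0.443 in pair 1 and -1.23 in pair 2 (log2). The list took 0.198% and 0.231% of counts at 20 min, against 0.285% and 0.568% at 10 min, and 0.241% to 0.353% in asynchronous cells. The glucokinase gene *GLK1* stood at 196 and 175 CPM at 20 min, against 336 and 466 CPM at 10 min (change -1.15, SE 0.278, adjusted p = 0.23). The groups were apart, beside 15.4% of all transcripts lower in this way. The trehalose phosphatase gene *TPS2* stood at 145 and 77.9 CPM, against 215 and 181 CPM. The disaggregase gene *HSP104* stood at 894 and 1159 CPM, against 1311 and 2748 CPM, and the chaperone gene *SSA4* at 249 and 516 CPM, against 342 and 1645 CPM, so replicate 2 had the higher level and the larger difference.

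Of 11 iron uptake genes tested, 9 were higher in both pairs (beside 27.6%) and 2 lower, 5 were higher at an unadjusted p under 0.05 (beside 4.44%) and 0 lower, with a median of 0.467. The metalloreductase gene *FRE1* stood at 682 and 671 CPM at 20 min, against 368 and 351 CPM at 10 min (change 0.91, SE 0.161, adjusted p = 0.11). The replicates were close at both times. The ferroxidase gene *FET3* stood at 272 and 272 CPM, against 139 and 151 CPM. Its partner, the permease gene *FTR1*, stood at 193 and 145 CPM, against 106 and 93.1 CPM, and the siderophore transporter gene *SIT1* at 342 and 320 CPM, against 171 and 194 CPM. In the *ARP8* libraries fitted alone, 4 of the 11 passed, all higher (beside 0.561% of all transcripts).

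Of 53 ribosome biogenesis genes, 33 were higher in both pairs (beside 27.6% of all transcripts) and 5 lower (beside 29.9%), and 7 were higher at an unadjusted p under 0.05 (beside 4.44%) and 0 lower, with a median of 0.173. *NOP13* had the lowest p of the list, with 314 and 435 CPM at 20 min and 225 and 320 CPM at 10 min. The 138 ribosomal protein genes had a median of -0.0834, with 0.162 in pair 1 and -0.351 in pair 2, so the sign depended on the replicate. The hexose transporters gave opposite cases. *HXT7*, a high-affinity carrier, stood at 38.3 and 275 CPM at 20 min, against 99.9 and 697 CPM at 10 min, with -1.37 in pair 1 and -1.34 in pair 2. It shares 95.7% of its 31-mers with another gene, so how its reads were divided is uncertain. *HXT1*, a low-affinity carrier, stood at 129 and 181 CPM at 20 min, against 96.3 and 82.9 CPM at 10 min. Among 17 genes of bud emergence and septins, 8 were higher in both pairs (beside 27.6%) and 4 lower (beside 29.9%), led by the septin gene *CDC11* with 103 and 143 CPM at 20 min, against 74.2 and 96.1 CPM at 10 min.

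The remaining lists are given by their counts at an unadjusted p under 0.05, beside 4.44% of all transcripts higher and 5.63% lower. The cell wall list had 4 of 16 higher and 1 lower, led by the glucanosyltransferase gene *GAS3* with 42.2 and 59.9 CPM at 20 min, against 17.4 and 36.5 CPM at 10 min. The DNA damage list had 0 of 9 higher and 3 lower, the kinase gene *DUN1* among them with 119 and 92.6 CPM at 20 min, against 144 and 201 CPM at 10 min. The 15 INO80 subunits had 0 higher and 1 lower, *IES2*, with 51.7 and 37.1 CPM, against 62.0 and 55.0 CPM. The histone regulators and chaperones, the sulfur genes and the meiotic genes had at most 1 in either direction. Nucleotide synthesis, the phosphate regulon and the mitochondrially encoded transcripts had 0 in both. The study's list of cell cycle genes had 686 tested, with 52 higher and 57 lower, and 1, *FKH1*, rose.

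The promoters of the transcripts on either side held different motifs. The window is that of the sequences shown above, searched on both strands, and 5372 of the transcripts tested had one. The forkhead motif GTAAACA lay in 17.8% of the 241 promoters of transcripts higher at 20 min at an unadjusted p under 0.05, against 2.98% of the 302 promoters of those lower and 6.94% of all. The MCB element ACGCGT lay in 1.66% of the promoters of the higher, 9.27% of the lower and 3.2% of all. The stress element CCCCT lay in 11.6% of the higher, 41.7% of the lower and 21.6% of all. For the SCB element CNCGAAA the values were 12.9%, 16.9% and 14.2%, and for the pheromone element TGAAACA 7.05%, 6.29% and 7.32%.

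The Bas1 motif of *ADE17*, TGACTC, searched after the change of that gene was seen, lay in 6.22% of the higher, 7.95% of the lower and 8.21% of all. By list, MCB lay in 72.7% of the 33 MBF targets, the forkhead motif in 52.6% of the 19 *CLB2* cluster genes, the stress element in 60% of the 20 stress genes and the pheromone element in 56.7% of the 30 pheromone genes. These lists were written from known targets of the factors, so their shares describe the lists. None of these motifs contains another, and a match is not a bound site.

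**Figure D5:**
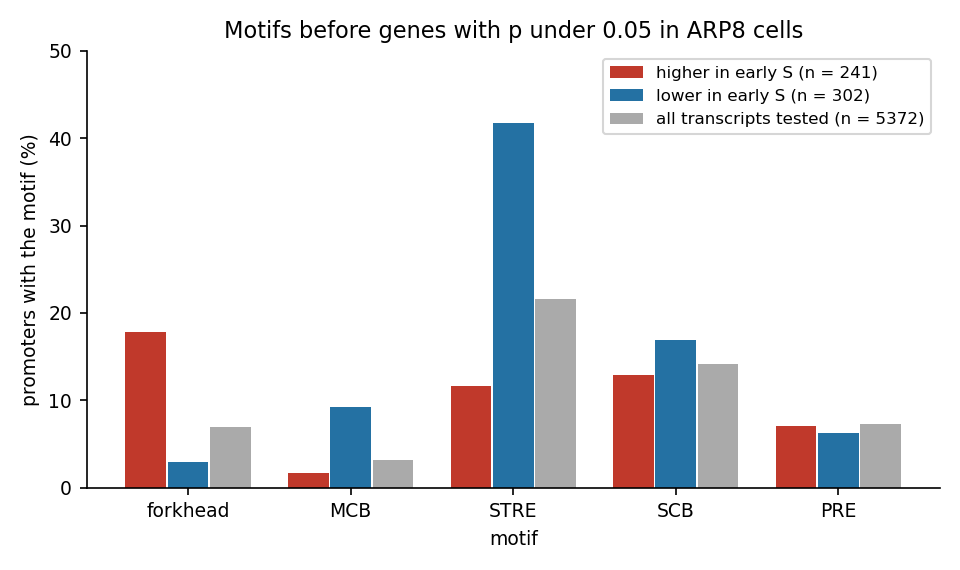
Percent of promoters that hold each of 5 motifs on either strand, for transcripts higher (n = 241) or lower (n = 302) at 20 min in *ARP8* cells at an unadjusted p under 0.05, and for all transcripts tested (n = 5372). The forkhead motif is most frequent before the higher set (17.8%) and the stress element before the lower set (41.7%).

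The change from 10 to 20 min was also compared between the genotypes, to see whether it was particular to *ARP8* cells. The test of the difference of the 2 changes called 0 transcripts, with 110 at an unadjusted p under 0.05 (2.02%), and DESeq2 also called 0. With 2 replicates a genotype this does not show that the genotypes change alike. In *arp8-AA* cells 1 transcript changed by the same test (0.0183%), *ADE17*, and 544 had an unadjusted p under 0.05 (9.98%). *ADE17* stood at 320.5 and 357 CPM at 20 min in *arp8-AA* cells, against 836 and 959 CPM at 10 min, a change of -1.40. The difference from the change in *ARP8* cells was 0.057 (log2, *arp8-AA* minus *ARP8*, SE 0.212, adjusted p = 0.98). *FKH1* stood at 61.9 and 146 CPM at 20 min in *arp8-AA* cells, against 29.5 and 60.9 CPM at 10 min, a change of 1.17 that differed by -0.036 (SE 0.253). *SUR7* differed by -0.39 (SE 0.313) and *FRE1* by -0.0041 (SE 0.226).

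The replicates of *arp8-AA* cells also differed in their histone share. The core histones took 0.312% and 0.909% of counts at 20 min in *arp8-AA* cells, against 0.0894% and 0.333% at 10 min. *HHT1* stood at 680 and 1838 CPM at 20 min in *arp8-AA* cells, against 231 and 755 CPM at 10 min, with 1.56 in pair 1 and 1.28 in pair 2, and its change differed from that in *ARP8* cells by -0.12 (SE 0.4, adjusted p = 0.98). Among the G1/S genes the differences had wide errors. *CLB6* differed by -0.036 (SE 0.689). *MCD1* stood at 737 and 337 CPM at 20 min in *arp8-AA* cells, against 498 and 899 CPM at 10 min, so the pairs moved in opposite directions (0.566 and -1.42), whereas both were negative in *ARP8* cells. *CLN2* stood at 24.5 and 40.3 CPM at 20 min in *arp8-AA* cells, against 19.4 and 41.2 CPM at 10 min, and differed by 1.18 (SE 0.483, adjusted p = 0.96). The median change of the MBF targets was -0.36 in *arp8-AA* cells and -0.573 in *ARP8* cells, that of the *CLB2* cluster 0.539 and 1.03, and that of the core histones 1.52 and 1.18.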

How the data were processed

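RNA was extracted, depleted of ribosomal RNA and sequenced as directional paired-end libraries. The authors pseudoaligned the reads to the R64 transcripts with kallisto 0.48 and deposited estimated counts, not normalized, and TPM for 6612 transcripts, without use of strand, so overlapping antisense transcripts cannot be told apart. The estimated counts were rounded and tested in R 4.3.3 with edgeR 4.0.16 (filterByExpr, TMM, quasi-likelihood F-test, two-sided, Benjamini-Hochberg adjustment). The deposited TPM values served for levels between genes only. The fit held the 8 synchronised libraries, group and replicate number. Same-numbered libraries deviated together in all 6 pairs of groups (r from 0.474 to 0.65), so the number was kept as a block. Replicates were not copies (chi-square per degree of freedom 20.3 and 31.5). Changes within a pair use 0.5 CPM added to each value. The p-values measure the spread left between the 2 cultures of a group after the block takes out the shared difference of the replicates. This spread was estimated over all 8 synchronised libraries, those of *arp8-AA* cells included. Of the transcripts, 5929 matched a RefSeq locus and 5908 its coding length. limma 3.58.1 (voom), DESeq2 1.42.0, other scaling, filters, samples and left-out libraries were tried.

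The members and lists were chosen with earlier results of these data known. Named genes are the 10 largest called changes each way (same direction in both pairs, at least 10 CPM, at most 50% shared 31-mers), the called members of each list or else those of lowest p, and a set of cell cycle genes. Further names were added after values were seen, such as *AIM20*, the MCM genes beyond the first, *SIT1* and *HSP104*. Plots used Python 3.11.15 and matplotlib 3.10.9. A further promoter and a further motif, beside those in the report, are not reported here.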

Additional observations from a re-analysis of the deposited data

How the results depend on the processing

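With the replicate block, 6 transcripts were called. Without the block 0 were called (156 at an unadjusted p under 0.05), with DESeq2 28 (7 higher, 21 lower), without the filter on low counts 12, and with the 4 *ARP8* libraries alone 95 with the replicate block and 0 without it (172 unadjusted). Leaving out 1 *ARP8* library gave 0 to 4 calls: 1 (*VTH1*, lower, 99.3% of its 31-mers shared with another gene) without 20 min replicate 1, 4 histone genes without 20 min replicate 2, 3 (lower) without 10 min replicate 1 and 0 without 10 min replicate 2. Leaving out *ARP8* replicate 1 or 2 at both times, an alternative added after seeing the data, gave 0 calls (531 and 100 unadjusted). The lone pair then takes its spread from the *arp8-AA* libraries. Size factors by RLE, limma-voom, the looser threshold and a block within each genotype (added later) gave 5 to 8. For the difference between genotypes, leaving out 1 library gave 0 to 1 calls and the block within each genotype 1 (*YHR218W*).

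Of the 4 called measurements, none turned sign under any of 15 alternatives. The looser threshold is 1 of these and leaves every change as it was. Signs turned for transcripts that did not pass. Leaving out libraries gave -0.89 to 0.287 for *HCM1*, -0.921 to 0.16 for *CLN1*, -0.832 to 0.0572 for *CDC6*, -0.167 to 0.0665 for *CDC7*, -0.339 to 0.304 for *SIC1*, -0.594 to 0.18 for *FUS1*, -0.552 to 2.56 for *HOF1* and -0.037 to 0.372 for *ARP8*. Without the block *SIC1* had 0.0203 and *FUS1* 0.095, and in the *ARP8* libraries alone without the block 0.0215 and 0.0974. *SIC1* had 0.00081 with limma-voom, 0.0102 in the *ARP8* libraries alone with the block and 0.00877 with the block within genotype. Over the alternatives the median of the core histones ran from 0.568 to 2.12, of the *CLB2* cluster from 0.00513 to 1.62, of the MBF targets from -1.14 to -0.193 and of the stress genes from -1.34 to -0.309. The causes were not tested. Transcripts of few counts, such as *SWI5* at 10 min, limit what could be called.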

Other observations

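Across the core histones, the genes of H2B stood well below those of its partners when levels were compared per length. In the deposited TPM, *HTB1* and *HTB2* together had 176 and 267 at 20 min and 59.4 and 156 at 10 min. *HTA1* and *HTA2*, which encode H2A, had 4504 and 7367 at 20 min and 1111 and 4475 at 10 min, and *HHT1* and *HHT2* of H3 had 3405 and 5552 at 20 min and 793 and 2808 at 10 min. H2A and H2B pair in the nucleosome, and the H2B transcripts were the low ones in every *ARP8* library here.

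The phosphate regulon took 0.0994% and 0.0735% of counts at 20 min and 0.109% and 0.0811% at 10 min in *ARP8* cells, against 0.0498% to 0.0554% in asynchronous *ARP8* cells. *PHO89*, a phosphate transporter gene, stood at 39.4 and 5.51 CPM at 20 min and 95.5 and 3.62 CPM at 10 min, so it differed mainly between replicates. The sulfur genes took 0.443% and 0.261% at 20 min and 0.545% and 0.233% at 10 min, against 0.207% to 0.225% in asynchronous cells, and *MET14* stood at 188 and 56.2 CPM at 20 min and 236 and 77.3 CPM at 10 min.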
